A study of Mus musculus with 8 samples.

Results

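The replication-dependent histone genes are the 67 protein-coding mouse genes whose GENCODE M21 symbol starts with Hist1h, Hist2h, Hist3h or Hist4h, out of 41214 gene identifiers in the count files. Of these genes, 64 had a row in the files and 57 passed the filter on low counts and were tested. Hist1h2bh, Hist1h2bm and Hist2h2bb had no row, so their levels were not analysed here. They do enter the stem-loop search below, and the promoter counts where a window matched. The 7 genes with a row that were not tested were Hist1h2aa, Hist1h2ap, Hist1h2ba, Hist1h2bq, Hist2h2aa1, Hist2h2aa2 and Hist2h3c1, with at most 7 counts in any library.

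RNA was sequenced from tumours in the spleens of C57Bl6 mice, with 2 libraries per group and 1 mouse per library. The groups were CD4+ T cell tumours with the Miz1 deltaPOZ genotype (T deltaPOZ), CD4+ T cell tumours with wild-type Miz1 (T wt), B cell tumours with Miz1 deltaPOZ (B deltaPOZ) and B cell tumours with wild-type Miz1 (B wt). Miz1 is the transcription factor encoded by Zbtb17, and deltaPOZ removes its POZ domain, through which it forms multimers and binds partner proteins. The study asked how this deletion alters the expression profiles of B and T leukaemia cells. The sources used here do not give the promoter or Cre behind the deletion or the age of the mice. The names of the deposited libraries carry 1 run tag for all B libraries and another for all T libraries, so run and lineage cannot be told apart. They also carry the word Notch for all T libraries and ENU for the T deltaPOZ libraries alone, so whatever ENU marks cannot be told apart from the genotype in T.

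Each library held 44330101 to 58271208 gene counts. The B cell markers summed to 19.1 to 106 CPM (counts per gene scaled to a common library total) in T and 1742 to 2973 CPM in B. The T cell markers summed to 2422 to 3408 CPM in T and 31.2 to 75.3 CPM in B, so the B and T labels held. The tumours also held other cells: erythroid markers summed to 4690 to 22733 CPM in T and 4.89 to 222 CPM in B. In each T library the erythroid sum was above that of the T cell markers. The targeted gene Zbtb17 had 40.1 and 36.9 CPM in T deltaPOZ, 49.6 and 42.3 CPM in T wt, 49.4 and 59.1 CPM in B deltaPOZ, and 66.1 and 48.0 CPM in B wt. These are counts over the whole gene, so they do not check the loss of the part that encodes the POZ domain. Xist, transcribed from the inactive X chromosome, had 0.936 and 0.757 CPM in B deltaPOZ and 975 and 1477 CPM in B wt, so sex and genotype cannot be told apart in B. In T the libraries of a genotype differed: it had 11.8 and 35.4 CPM in T deltaPOZ, and 1246 and 25.99 CPM in T wt.

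Replication-dependent histones supply the protein that packages newly copied DNA, and cells make them mainly in S phase. A pair each of H2A, H2B, H3 and H4 forms the nucleosome core, and H1 binds the linker DNA between nucleosomes. Their genes are short, lack introns as a rule and lie in clusters. Their mRNAs usually end in a conserved stem-loop in place of a poly(A) tail: the stem-loop binding protein Slbp holds it, U7 snRNP directs the cut just after it, and the same element directs rapid decay when DNA synthesis stops. NPAT, encoded by Npat, is the shared coactivator of their transcription. The library kit selects mRNA by its poly(A) tail, so every level below is of polyadenylated reads and does not measure the tail-less form. In bulk tumours, fewer cycling cells and less histone RNA per cell cannot be told apart.

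The 67 genes lie on 4 chromosomes of GRCm38. The largest cluster, on chromosome 13, has a distal group of 23 genes (chr13:21715763-22043676) and a main group of 31 genes (chr13:23531050-23934851). The cluster on chromosome 3 (chr3:96219865-96270132) holds 10 genes, 2 genes lie on chromosome 11 (chr11:58948920-58956830) and Hist4h4 lies alone on chromosome 6 (chr6:136801553-136804415). The class sizes were 6 genes of H1, 18 of H2A, 18 of H2B, 12 of H3 and 13 of H4. All 13 H4 genes encode 1 protein of 103 residues, through 12 different coding sequences. The 12 H3 genes encode 2 proteins, the 18 H2A genes 9, the 18 H2B genes 11 and the 6 H1 genes 6.

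The stem-loop is shown because it decides how these mRNAs normally end. A search of the annotated transcripts used a set letter pattern for the stem-loop, with arms of 6 bases around a 4-base loop. It found a match in 46 of the 67 genes, 21 to 58 bases after the stop codon (median 31). The pattern fixed some letters of each arm and allowed only C or T at the rest of the left arm. A stem-loop with other letters would thus be missed. Of the other 21 genes, 16 have an annotated end less than 20 bases past the stop codon, so the element could not be seen there. Capitals mark the stem and lower case the loop in these sequences from GENCODE M21, given as DNA.
Hist1h1c: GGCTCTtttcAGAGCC
Hist1h1t: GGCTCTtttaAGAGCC
Hist1h3g: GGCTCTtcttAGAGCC
Hist1h4d: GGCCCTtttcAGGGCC
Hist1h4a: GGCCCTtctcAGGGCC
Hist1h4b: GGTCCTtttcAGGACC
The left arm GGCTCT stood in all 34 stem-loops found outside H4 and in 0 of the 12 found in H4. In H4 the left arm was GGCCCT in 10 genes and GGTCCT in Hist1h4b and Hist1h4j. The form of Hist1h1c, with the loop tttc, stood in the 3 genes Hist1h1c, Hist1h1d and Hist1h1e, in 10 H2A genes, 8 H2B genes and 5 H3 genes. The annotated transcript ran more than 100 bases beyond the stem-loop in 23 of the 46 genes.

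Promoters are shown for 3 members because the classes share letters there. Of the members, 62 matched a promoter window of RefSeq (GRCm38.p6; 250 bases before to 50 after the start site). CCAAT, searched on both strands, stood in 53 of the 62 windows, against 37.4% of all 32851 windows. It was in all 6 H1, 18 H2A, 16 H2B and 10 H3 windows and in 3 of the 12 H4 windows. TATAAA stood in 35 of 62 (56.5%), against 13.6% of all windows. The octamer ATTTGCAT stood in 13 of 62 (21%), against 1.74% of all windows: 7 of the 18 H2A windows and 6 of the 16 H2B windows. Neighbouring H2A and H2B genes on opposite strands share much of a window, so these counts are not independent. Capitals mark the letters found on either strand in the 250 bases before each start site, 5′ to 3′ on the gene's strand. Hist1h2bp is shown as the member with the smallest p in B, Hist1h2bg because it holds the octamer in a window shared with Hist1h2ae, and Hist1h4d as the member of highest level.
Hist1h2bp (chr13:21787238-21787487, plus strand): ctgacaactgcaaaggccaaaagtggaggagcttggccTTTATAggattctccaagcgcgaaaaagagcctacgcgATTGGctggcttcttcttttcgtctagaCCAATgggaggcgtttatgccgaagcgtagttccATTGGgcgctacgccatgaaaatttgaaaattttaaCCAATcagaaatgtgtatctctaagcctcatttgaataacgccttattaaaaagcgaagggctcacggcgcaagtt
Hist1h2bg (chr13:23571150-23571399, plus strand): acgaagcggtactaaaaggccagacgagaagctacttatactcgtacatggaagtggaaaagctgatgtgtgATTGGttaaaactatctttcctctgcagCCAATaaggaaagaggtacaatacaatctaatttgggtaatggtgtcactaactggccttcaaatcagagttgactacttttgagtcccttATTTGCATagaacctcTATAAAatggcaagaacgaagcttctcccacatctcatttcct
Hist1h4d (chr13:23581318-23581567, plus strand): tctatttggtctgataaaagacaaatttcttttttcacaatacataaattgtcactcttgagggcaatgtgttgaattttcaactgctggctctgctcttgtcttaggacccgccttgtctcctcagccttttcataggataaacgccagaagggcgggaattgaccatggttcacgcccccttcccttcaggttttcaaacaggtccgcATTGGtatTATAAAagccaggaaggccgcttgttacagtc
A match is a description of the letters and not of binding.

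Many members are near copies of each other, and the files set non-unique alignments aside, so a near copy loses reads. Of the 57 tested members, 26 shared at least 50% of their 50-base stretches with another gene (median over the 57, 49.3%). The 7 untested members had a median of 93.1%. Hist2h2aa1 and Hist2h2aa2 shared 96.3% and 100% of theirs, and each stayed under 0.1 CPM, which does not show that the genes are silent. Hist2h3c1 had 0 counts in all 8 libraries, which allows up to 0.0677 CPM in the shallowest library (3 counts over its total). Annotated antisense genes cover exons of all 18 H2A members, and the sources used here do not say whether counting used strand. Hist1h2be and Hist1h1e overlap on the same strand, so reads that fit both can be set aside as ambiguous and lost to each.

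All 64 members together took 1.62% and 2.40% of the gene counts in T deltaPOZ, 1.36% and 2.18% in T wt, 1.17% and 0.939% in B deltaPOZ, and 1.58% and 1.52% in B wt. The 95% Wilson intervals were at most 0.00786 percentage points wide and cover counting error only, so the spread between mice far exceeds them. As summed CPM, the members reached 19453 ± 5299 in T deltaPOZ, 17532 ± 7132 in T wt, 10876 ± 1906 in B deltaPOZ and 16011 ± 1445 in B wt (SD, n = 2 each). Both B deltaPOZ libraries lay below both B wt libraries. The 2 T groups overlapped, and T wt 1 lay below both B wt libraries.

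**Figure D1:**
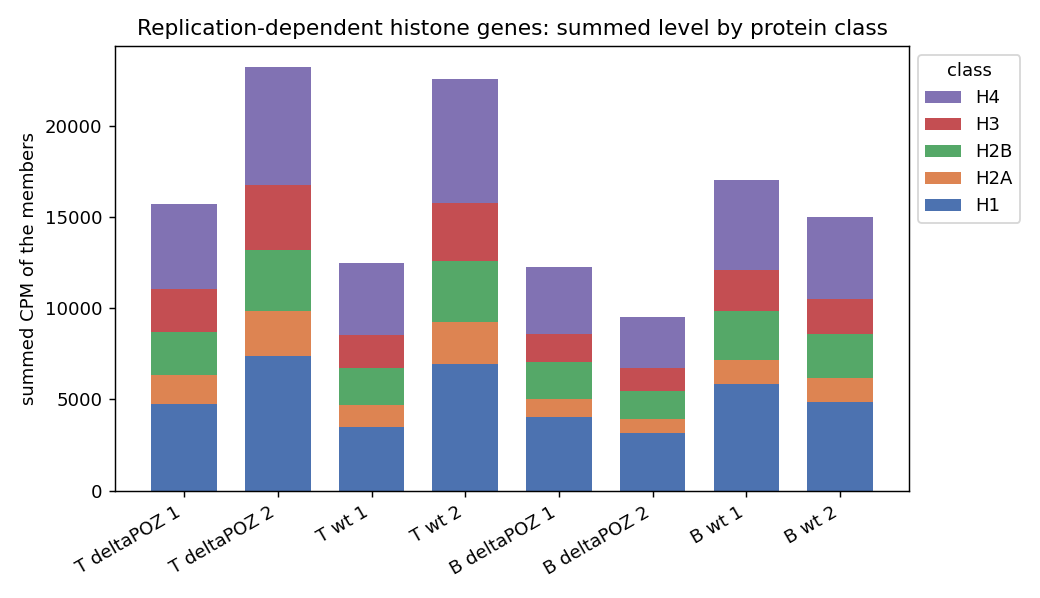
Stacked bars give the summed CPM of the 64 members in each library, split by protein class, with T deltaPOZ, T wt, B deltaPOZ and B wt from left to right. The tallest bars are T deltaPOZ 2 and T wt 2, and the lowest is B deltaPOZ 2 at 9528 CPM.

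H1 and H4 were the most abundant classes by summed CPM. Of all member CPM, H1 took 27.7 to 31.8% in T and 32.3 to 34.2% in B, and H4 took 27.8 to 31.9% in T and 29.0 to 29.9% in B. The smallest share was that of H2A, with 9.86 to 10.5% in T and 7.91 to 8.80% in B. In H2A, antisense genes lie over exons of all 18 members, and 14 of the 18 had enough counts to be tested. How far lost reads lower this share was not tested. The H1 share was lower, and the H2A share higher, in every T library than in any B library.

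Levels between genes are compared as CPM per kilobase of coding length, averaged over the 4 group means. Annotated ends differ too much among these genes for a fair use of full transcript length. In H4 the leading members were Hist1h4d (3057), Hist1h4c (2147) and Hist1h4h (2087). In H1 they were Hist1h1c (2150.4), Hist1h1b (1559) and Hist1h1d (1533). In H2B they were Hist1h2bb (1499.5), Hist1h2be (1130.2) and Hist1h2bj (906). In H3 they were Hist1h3f (1419.7), Hist1h3e (944) and Hist1h3b (756). In H2A they were Hist2h2ac (767), Hist1h2ab (681) and Hist1h2ak (558), so the first H2A member stood below the first member of each other class. The limit on H2A reads given above holds here too. At the low end of the tested members stood Hist1h2ao (0.318), Hist1h2br (1.31), the testis H1 gene Hist1h1t (2.27) and Hist2h3c2 (7.46). Reads over the whole annotated transcript enter this level, while only the coding length divides them. A longer annotated end thus raises the level by itself, which also bears on the ranking above. Tested members annotated more than 100 bases past the stem-loop had a median of 904 CPM per kilobase (n = 21). Those ending sooner had 621 (n = 19), and those with no annotated stem-loop 156 (n = 17). Because of the measure, these medians do not compare the genes' expression.

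Among the H1 genes, Hist1h1c had 1253 and 2295 CPM in T deltaPOZ, 985 and 2235 in T wt, 1103 and 588 in B deltaPOZ, and 1516 and 1018 in B wt. Hist1h1a had 662 and 1275 CPM in T deltaPOZ, 423 and 991 in T wt, 915 and 938 in B deltaPOZ, and 1242 and 1229.9 in B wt. Hist1h1a made up a smaller part of H1 in every T library than in any B library, with 12.2 to 17.3% of H1 CPM in T and 21.3 to 29.7% in B. Hist1h1b had 998 and 1394 CPM in T deltaPOZ, 807 and 1374 in T wt, 739 and 700.2 in B deltaPOZ, and 1231 and 1136 in B wt. Hist1h1e had 619 and 848 CPM in T deltaPOZ, 449 and 740.0 in T wt, 573 and 455 in B deltaPOZ, and 870.3 and 579.6 in B wt. For both genes the B deltaPOZ libraries lay below the B wt libraries, and the T groups overlapped. Hist1h1t, which in the body belongs to spermatocytes, stayed at or below 5.03 CPM in every library.

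In B tumours, polyadenylated histone reads were lower in deltaPOZ than in wt nearly throughout the family, without any member passing the test. Of the 57 tested members, 56 had a log2 fold change below 0, against 50.7% of all 16456 tested genes, and the median over the members was -0.58, against -0.01 over all genes. Both deltaPOZ libraries lay below both wt libraries in 50 of 57 members, against 19.1% of all genes. The lower values were spread over every class: the medians were -0.61 in H1 (6 of 6 below 0), -0.52 in H2A (13 of 14), -0.68 in H2B (13 of 13), -0.53 in H3 (11 of 11) and -0.52 in H4 (13 of 13). The exception was Hist1h2ao (0.77 ± 1.11), with at most 0.249 CPM anywhere.

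No member passed an adjusted p of 0.05 by the quasi-likelihood test of edgeR, with p adjusted after Benjamini and Hochberg, where 1 gene in all did (0.00608%); 10 of 57 members and 1996 of 16456 genes had an unadjusted p under 0.05. DESeq2 called 1 member, Hist1h2bp, and 4.14% of all genes, and limma-voom called 0 members and 0.0365% of all genes. Without the filter on low counts edgeR called 5 of 63 members and 4.79% of all genes. With 2 mice per group and sex following genotype, these counts describe these tumours.

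Hist1h2bp (chr13:21787461-21789213), an H2B gene of the distal group, had 21.3 and 17.1 CPM in B deltaPOZ against 64.8 and 45.6 CPM in B wt. Its log2 fold change was -1.53 ± 0.30 (SE; adjusted p = 0.196, edgeR), and DESeq2 gave -1.52 with an adjusted p of 0.000862. Another H2B gene, Hist1h2bf, had 66.5 and 80.8 CPM in B deltaPOZ against 147 and 138 CPM in B wt (-0.95 ± 0.30, edgeR adjusted p = 0.327). The groups did not overlap in either gene. The H2A gene Hist1h2af had 59.2 and 65.3 CPM in B deltaPOZ against 148 and 92.9 CPM in B wt (-0.96 ± 0.33, edgeR adjusted p = 0.361). Hist1h2be, the H2B gene with the second level of its class, had 291 and 257 CPM in B deltaPOZ against 519 and 391 CPM in B wt (-0.73 ± 0.26, edgeR adjusted p = 0.370). In these genes too, each deltaPOZ library was below each wt library.

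The leading members of H4, H2B and H3 had log2 fold changes no further below 0 than the family's median. That of H1, Hist1h1c, stood at the median (-0.58 ± 0.51), and that of H2A, Hist2h2ac, was further below 0 (-0.73 ± 0.43). Of the members next in level, some were further below 0, such as Hist1h1b (-0.72 ± 0.29) and Hist1h3b (-0.72 ± 0.42). Others were not, such as Hist1h2bj (-0.30 ± 0.30). Hist1h4d had 743 and 642 CPM in B deltaPOZ against 1005 and 856 CPM in B wt, a log2 fold change of -0.43 ± 0.26. Hist1h2bb had 505 and 382 CPM in B deltaPOZ against 704 and 621 CPM in B wt (-0.58 ± 0.37). Hist1h3f had 387 and 343 CPM in B deltaPOZ against 570.0 and 482 CPM in B wt (-0.53 ± 0.38). Of Hist1h4d, Hist1h2bb and Hist1h3f, none passed the test, and in none did the groups overlap. The groups did overlap in Hist1h1c, Hist1h2ah, Hist1h2ai, Hist1h2ao, Hist1h2bj, Hist2h3b and Hist2h4.

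**Figure D2:**
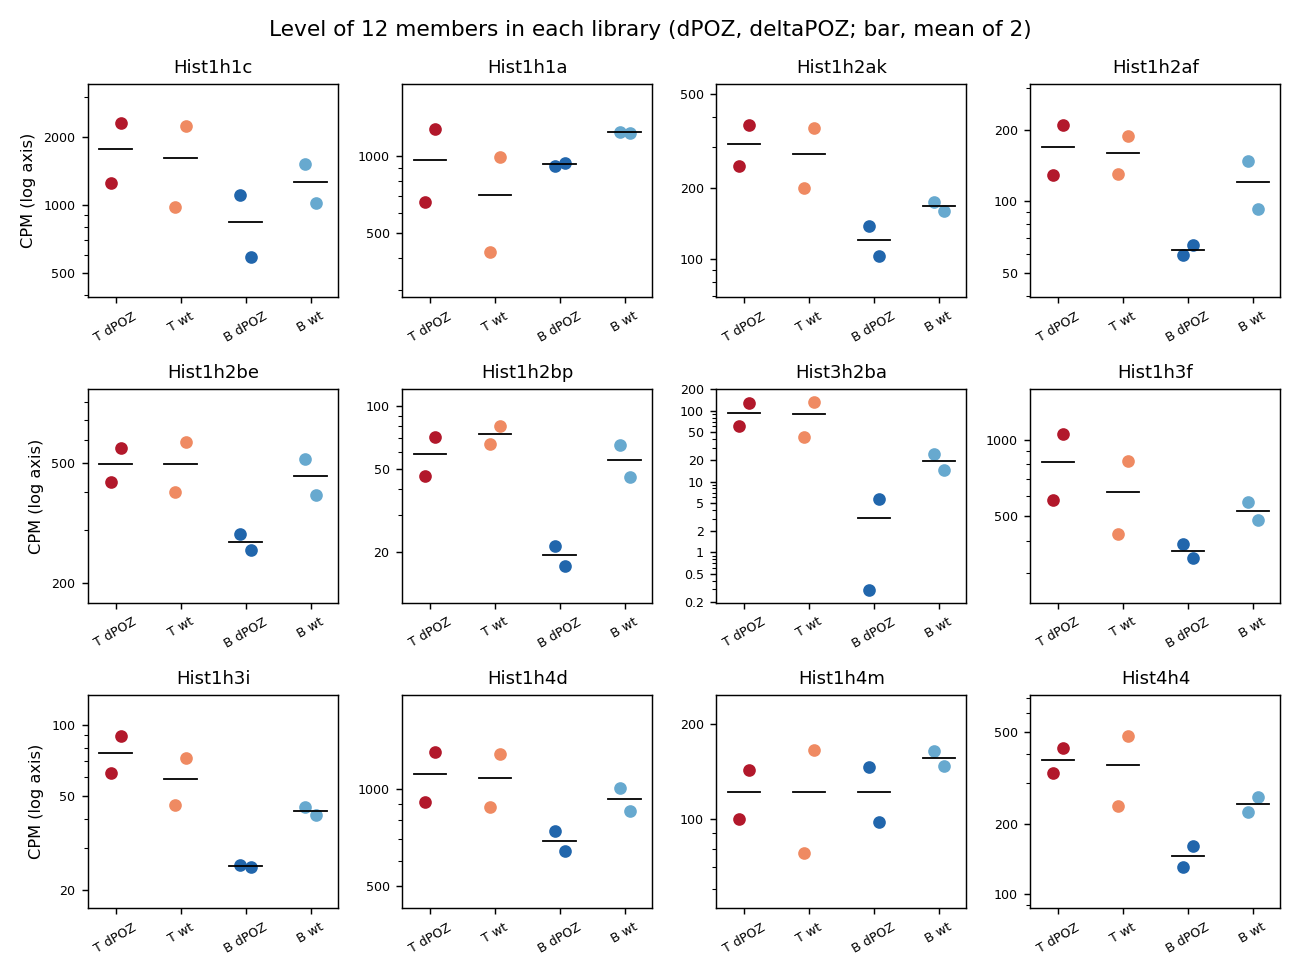
Each panel gives the CPM of 1 member in each library on a log axis, with T deltaPOZ, T wt, B deltaPOZ and B wt from left to right and a bar at the mean of the 2 libraries. The B deltaPOZ points of Hist1h2bp, Hist1h2af, Hist1h2be and Hist1h3i lie below the B wt points, while the T groups overlap in all 12 panels.

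The chromosome 3 members were measured against a background of their own. Over the genes of chromosome 3 above 10 CPM, the median of the log2 fold changes in B was 0.32 (n = 427), against -0.01 over all chromosomes, and their median log2 difference of B deltaPOZ 1 minus B deltaPOZ 2 was 0.47. The 6 tested members there nevertheless were all below 0, with a median of -0.63. Hist2h4, the H4 gene of this cluster, had 203 and 84.4 CPM in B deltaPOZ against 145 and 165 CPM in B wt, so 1 deltaPOZ library lay above and the other below wt. Hist2h3c2, an H3 gene, had 2.11 and 1.30 CPM in B deltaPOZ against 5.88 and 3.91 CPM in B wt (-1.52 ± 0.55, edgeR adjusted p = 0.370). On chromosome 13 the same median was -0.04, and the tested members had -0.52 in the distal and -0.58 in the main group.

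B deltaPOZ 2 was the lowest of the 4 B libraries in 47 of 57 members, against 26.1% of all genes, and with it left out the median was -0.40, with 52 of 57 below 0. Without B deltaPOZ 1 the median was -0.74. Restricted to the 31 tested members with less than 50% of shared stretches, the median was -0.58 and all 31 were below 0. The B cell markers were also lower in B deltaPOZ, with 1769 and 1742 CPM against 2973 and 2319 CPM in B wt, 7 of 8 below 0 and none called. Neutrophil markers were below 0 in 10 of 10 and erythroid markers above 0 in 10 of 10, with none called. Neutrophil markers summed to 53.8 and 61.0 CPM in B deltaPOZ and to 126 and 757 CPM in B wt, and erythroid markers to 12.8 and 222 CPM in B deltaPOZ and 5.12 and 4.89 CPM in B wt. The part of these cell types in the histone values was not tested.

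Of the lists of genes that act with the replication-dependent histones, none had a gene called in B by edgeR with the filter on low counts. Of the list genes named for B, DESeq2 called Gins2 (adjusted p = 6.22e-05), Tonsl (2.49e-05), H1fx (0.00633), Gon4l (0.0347) and Exosc10 (0.0359). Without the filter edgeR called Rrm2 (adjusted p = 0.0106), Tonsl (0.0114), H1fx (0.000306) and Exosc10 (0.0488). The S phase list, of replication enzymes and their regulators, had 16 of 30 genes below 0 and a median of -0.03. Its genes of smallest p were Gins2, part of the replicative helicase (-0.96 ± 0.20, edgeR adjusted p = 0.207), and Rrm2, a subunit of ribonucleotide reductase (-0.92 ± 0.28, edgeR adjusted p = 0.320). The summed S phase level was 8194 and 7146 CPM in B deltaPOZ against 8035 and 8048 CPM in B wt. Slbp itself had 203 and 166 CPM in B deltaPOZ against 221 and 218 CPM in B wt, and Npat 99.0 and 96.9 CPM in B deltaPOZ against 93.8 and 80.0 CPM in B wt.

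The 3′ end processing list had 9 of 25 genes below 0 in B (median 0.19), led by the cap-binding subunits Ncbp2 (0.78 ± 0.31) and Ncbp1 (0.72 ± 0.28). The decay list had 5 of 11 below 0 (median 0.00), led by the exosome nuclease Exosc10 (0.82 ± 0.21) and the helicase Upf1 (0.35 ± 0.19). The histone gene transcription list had 7 of 15 below 0 (median 0.05), with Gon4l at 0.73 ± 0.20. The CDK inhibitor Cdkn1a, also on this list, was at -2.48 ± 1.05, a value that became 0.22 without B wt 2. The chaperone list had 7 of 26 below 0 (median 0.09), with Tonsl, which reads newly deposited H4, at -1.07 ± 0.18 and the CENP-A chaperone Hjurp at -0.39 ± 0.18. The replication-independent histones, variants made also outside S phase and mainly from polyadenylated mRNA, had 9 of 10 below 0 (median -0.56). Of these Cenpa, the centromeric H3, had 92.9 and 72.4 CPM in B deltaPOZ against 174 and 116 CPM in B wt (-0.81 ± 0.24), and H1fx stayed at or below 4.18 CPM in every library (-4.26 ± 1.07).

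In T tumours no member passed the test between genotypes, and for most members the libraries of the 2 genotypes overlapped. Of the 57 tested members, 48 had a log2 fold change above 0, against 49.8% of all genes, but the median was 0.13. Both deltaPOZ libraries lay above both wt libraries in 0 of 57 members, against 15.4% of all genes. edgeR called 0 members and 0% of all genes at an adjusted p of 0.05, with 0 members and 436 genes at an unadjusted p under 0.05. DESeq2 called 0 members and 0.31% of all genes, and limma-voom 0 members and 0 genes. The class medians ran from 0.04 in H4 to 0.23 in H3.

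The direction in T rests on single libraries. T wt 1 was the lowest T library in 54 of 57 members, against 31% of all genes. Without it the median was -0.23 with 53 of 57 below 0. Without T deltaPOZ 2 it was -0.18 with 46 of 57 below 0, without T deltaPOZ 1 it was 0.37, and without T wt 2 it was 0.63. The 2 libraries of a group differed by more than the groups did: T deltaPOZ 2 exceeded T deltaPOZ 1 in 56 of 57 members (median log2 difference 0.54, against 0.01 over all genes) and T wt 2 exceeded T wt 1 in 57 of 57 (0.84, against 0.03).

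Among the members of smallest p in T, all those above 0 show the same spread. Hist1h2an, an H2A gene, had 63.4 and 118 CPM in T deltaPOZ against 54.4 and 77.0 CPM in T wt (0.46 ± 0.33, edgeR adjusted p = 1). Hist1h3f had 579.9 and 1056 CPM in T deltaPOZ against 425 and 825 CPM in T wt (0.39 ± 0.38), and Hist1h1a gave 0.45 ± 0.44 and Hist1h3i 0.36 ± 0.28. In each the libraries of the groups interleaved. Below 0 were Hist1h2bp, with 46.3 and 71.4 CPM in T deltaPOZ against 65.7 and 80.5 CPM in T wt (-0.31 ± 0.29), Hist1h4k (-0.19 ± 0.31) and Hist1h4i (-0.09 ± 0.35). Hist1h1t, the member of smallest p in T, had 0.220 and 1.46 CPM in T deltaPOZ against 1.95 and 5.03 CPM in T wt (-2.05 ± 1.07, edgeR adjusted p = 1). Its groups did not overlap, and the value ran from -3.97 to -1.21 with 1 library left out. S phase genes had 30 of 30 above 0 in T (median 0.28) and 0 called, with sums of 7853 and 7433 CPM in T deltaPOZ against 5812 and 6942 CPM in T wt. Erythroid markers were below 0 in 10 of 10, B cell markers above 0 in 8 of 8, platelet markers above 0 in 7 of 7, macrophage markers above 0 in 10 of 10 and neutrophil markers below 0 in 8 of 10, with none called, and their part in the histone values was not tested. The other 5 histone-related lists had medians between -0.10 and 0.16, and 0 of their genes were called.

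**Figure D3:**
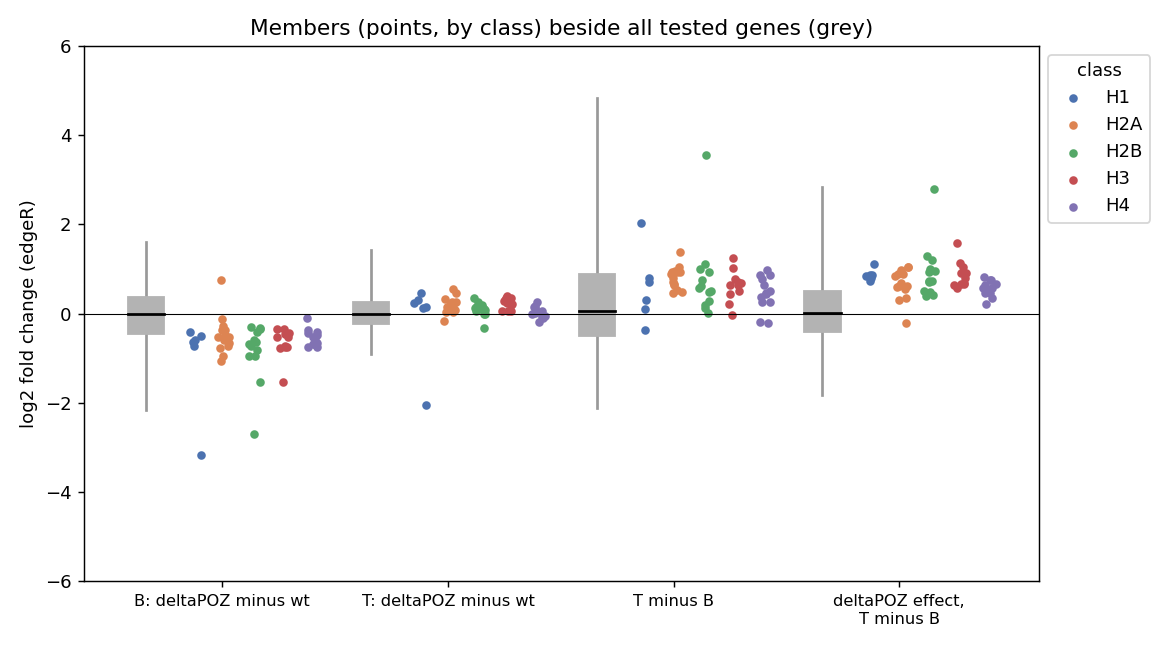
Points give the edgeR log2 fold change of each of the 57 tested members, coloured by class, in 4 comparisons, and grey boxes give all 16456 tested genes (box, 25th to 75th percentile; whisker, 5th to 95th; black bar, median). The member medians are -0.58 in B, 0.13 in T, 0.64 for T minus B and 0.72 for the difference of the deltaPOZ effects.

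The deltaPOZ effect itself was then compared between the lineages, with the same libraries as above. The difference, T minus B, was above 0 in 56 of 57 members, against 51.2% of all genes, with a median of 0.72, against 0.02 over all genes. edgeR called 0 members and 0% of all genes, with 3 members and 1030 genes at an unadjusted p under 0.05. DESeq2 called 0 members and 1.37% of all genes, and edgeR without the filter on low counts called 1 of 63 members and 2.84% of all genes. The members of smallest p were Hist1h2bp (1.21 ± 0.42, edgeR adjusted p = 0.731), Hist1h3i (1.14 ± 0.40, 0.731), Hist1h2bf (1.01 ± 0.42, 0.795) and Hist1h2bl (0.95 ± 0.41, 0.803). Hist1h2ao gave -0.20 ± 1.38. The median was 0.38 without T wt 1 and 0.43 without T deltaPOZ 2, and it was 1.21 without T wt 2. With B wt 2, T wt 1 and T deltaPOZ 2 left out together, which leaves 1 residual degree of freedom, the median was 0.07 and 25 of 57 members were below 0.

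Averaged over both genotypes, T tumours had more polyadenylated histone reads than B tumours for most members. By edgeR's test (adjusted p under 0.05), 19 of 57 rose while 0 fell. Within wt the summed CPM of the members overlapped, with 12489 and 22575 in T wt against 17033 and 14989 in B wt. The B deltaPOZ libraries had 12224 and 9528 CPM and the T deltaPOZ libraries 15706 and 23199 CPM. The lineages were not compared within wt alone. Of the 57 members, 19 were thus called in the average over genotypes. That is 33.3% of the members called, against 35.3% of all genes called and 19.3% of all genes called and higher in T. The log2 fold change was above 0 in 53 of 57 members, against 52.4% of all genes, and the median was 0.64, against 0.05 over all genes. All 4 T libraries lay above all 4 B libraries in 9 members (15.8%), against 20.1% of all genes. DESeq2 called 25 members and 41.9% of all genes, and edgeR without the filter on low counts called 36 of 63 members and 25.1% of all genes. Sequencing run and whatever the word Notch marks are confounded with this comparison.

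By class, the genes called higher in T were 1 of 6 in H1, 6 of 14 in H2A, 5 of 13 in H2B, 3 of 11 in H3 and 4 of 13 in H4. Hist1h3i, an H3 gene of the distal group (chr13:21782960-21783370), had 62.2 and 89.3 CPM in T deltaPOZ, 45.8 and 72.3 in T wt, 25.4 and 25.1 in B deltaPOZ, and 45.0 and 41.6 in B wt. It rose by 1.02 ± 0.20 (edgeR adjusted p = 0.00944). Hist1h2bp rose by 1.01 ± 0.21 (edgeR adjusted p = 0.0115). Both genes passed when any 1 library was left out, and no other member did. In Hist1h3i every T library was above every B library, while in Hist1h2bp T deltaPOZ 1 lay below B wt 1.

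Hist1h2ak, the H2A gene with the third level of its class (chr13:21753435-21753827), had 248 and 369.8 CPM in T deltaPOZ, 201 and 359.6 in T wt, 138 and 104 in B deltaPOZ, and 175 and 161 in B wt. It rose by 1.05 ± 0.23 (edgeR adjusted p = 0.0151) and did not pass without T deltaPOZ 2 (0.0517). Hist1h2bl, an H2B gene, had 69.6 and 93.4 CPM in T deltaPOZ, 50.6 and 84.5 in T wt, 34.4 and 27.2 in B deltaPOZ, and 49.96 and 48.7 in B wt. It rose by 0.93 ± 0.21 (edgeR adjusted p = 0.0153) and likewise did not pass without T deltaPOZ 2 (0.0564). Both had all T libraries above all B libraries.

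Outside chromosome 13, Hist3h2ba (chr11:58948920-58949533), an H2B gene, had the highest log2 fold change of the 57, with 60.9 and 127 CPM in T deltaPOZ, 42.7 and 135 in T wt, 0.293 and 5.76 in B deltaPOZ, and 24.7 and 14.6 in B wt. It rose by 3.57 ± 0.86 (edgeR adjusted p = 0.0197), and every T library was above every B library. Its neighbour Hist3h2a, an H2A gene that overlaps Trim17 on the same strand, had 21.6 and 13.5 CPM in T deltaPOZ, 6.31 and 32.9 in T wt, 2.55 and 15.7 in B deltaPOZ, and 21.8 and 16.1 in B wt (0.50 ± 0.68), so the lineages overlapped there. Hist4h4, on chromosome 6, had 331 and 426 CPM in T deltaPOZ, 239 and 481 in T wt, 131 and 161 in B deltaPOZ, and 226 and 261 in B wt, and rose by 0.97 ± 0.24 (edgeR adjusted p = 0.0208). On chromosome 3, Hist2h3b rose by 1.24 ± 0.30 (edgeR adjusted p = 0.0186) and Hist2h2be by 1.11 ± 0.28 (0.0217). Hist2h3b had 159 and 249 CPM in T deltaPOZ, 123 and 198 in T wt, 91.3 and 44.03 in B deltaPOZ, and 95.2 and 77.4 in B wt. These genes each lost their call in at least 3 of the 8 fits that left out 1 library.

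The remaining called members were Hist1h1d, Hist1h2ae, Hist1h2af, Hist1h2ag, Hist1h2ai, Hist1h2an, Hist1h2bn, Hist1h3a, Hist1h4a, Hist1h4f and Hist1h4n, with log2 fold changes from 0.63 in Hist1h3a to 0.94 in Hist1h2ai. The linker histone Hist1h1d had 1216 and 1574 CPM in T deltaPOZ, 794 and 1578 in T wt, 698 and 479 in B deltaPOZ, and 962 and 870.3 in B wt (0.81 ± 0.25, edgeR adjusted p = 0.0443). T wt 1 lay below both B wt libraries in this gene. Hist1h4a had 353 and 506 CPM in T deltaPOZ, 277 and 436 in T wt, 203 and 159.6 in B deltaPOZ, and 279 and 226 in B wt (0.87 ± 0.21, edgeR adjusted p = 0.0187). Of the 19 called members, 10 shared at least 50% of their 50-base stretches with another gene.

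The members below 0 between the lineages did not pass the test. Hist1h1a gave -0.37 ± 0.31, Hist1h4i -0.21 ± 0.25, Hist1h4m -0.18 ± 0.27 and Hist2h3c2 -0.03 ± 0.38. Hist1h4m had 99.6 and 143 CPM in T deltaPOZ, 78.0 and 165 in T wt, 146 and 97.6 in B deltaPOZ, and 164 and 147 in B wt, with the lineages overlapping. The leading H4 gene Hist1h4d gave 0.45 ± 0.19 and the leading H2B gene Hist1h2bb 0.12 ± 0.26, both without passing.

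**Figure D4:**
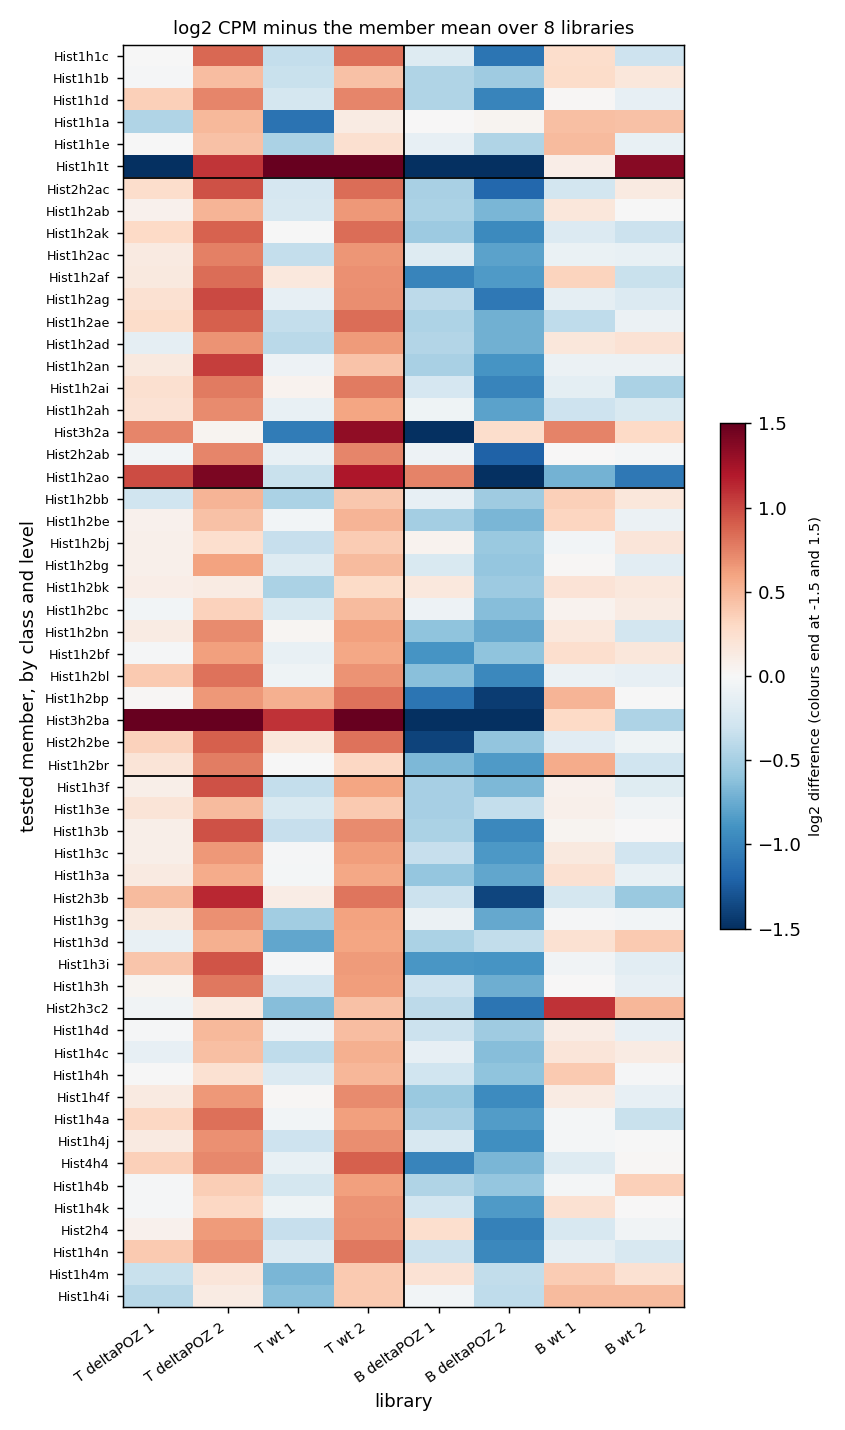
Colours give log2 CPM minus the member's mean over the 8 libraries for the 57 tested members, grouped by class and ordered by level per coding kilobase, with T libraries left of B libraries. Columns T deltaPOZ 2 and T wt 2 are red in nearly every row and column B deltaPOZ 2 is blue in most rows, whereas Hist1h4m and Hist1h4i are about as red in B wt as in T wt 2.

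The count of called members hung on single libraries. It was 2 without T deltaPOZ 2, 5 without T wt 2, 5 without B wt 2, 8 without B wt 1, 8 without B deltaPOZ 2 and 12 without B deltaPOZ 1, and it was 26 without T wt 1 and 14 without T deltaPOZ 1. Erythroid markers moved with the lineage and among the T libraries: 10 of 10 rose in T by edgeR's test, and they summed to 7661 and 12546 CPM in T deltaPOZ, 4690 and 22733 CPM in T wt, 12.8 and 222 CPM in B deltaPOZ, and 5.12 and 4.89 CPM in B wt. None of the 10 was at 0 in T, and Gata1 was at 0 in both B wt libraries. T deltaPOZ 2 and T wt 2, the libraries with the highest histone sums, also had the highest erythroid sums. Their part in the histone values was not tested. Platelet markers summed to 21.2 to 87.3 CPM in T and 3.67 to 22.2 CPM in B, with 5 of 7 called higher in T. Neutrophil and macrophage markers had 0 of 10 called each.

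The S phase and 3′ end processing lists were mostly below 0 between the lineages. Their counts of calls stand beside 35.3% of all genes called, 3176 of 16456 higher in T and 2625 lower. Of the S phase genes, 24 of 30 were below 0 in T minus B (median -0.18); 6 fell and 0 rose by edgeR's test, among them Rfc4, a clamp loader subunit (-0.71 ± 0.14, adjusted p = 0.00904). Of the 3′ end processing genes, 22 of 25 were below 0 (median -0.37), and 10 fell and 0 rose, led by the cleavage factor gene Cstf2t (-1.08 ± 0.10, edgeR adjusted p = 0.00100) and Snrpg, an Sm protein of U7 snRNP (-0.79 ± 0.11, 0.00316). Slbp had 226 and 240 CPM in T deltaPOZ, 171 and 217 in T wt, 203 and 166 in B deltaPOZ, and 221 and 218 in B wt, with the lineages overlapping. Npat had 101 and 97.0 CPM in T deltaPOZ and 90.4 and 94.1 CPM in T wt.

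Of the 15 genes of the histone gene transcription list 3 fell and 1 rose. Those of smallest p were the octamer-factor coactivator Pou2af1 (-4.51 ± 0.42, edgeR adjusted p = 0.000879) and the octamer factor Pou2f2 (-1.80 ± 0.31, 0.00594). Both are known for high levels in B cells. Of the 11 decay genes 2 fell and 3 rose, with the exonuclease Xrn1 at 1.12 ± 0.16 (edgeR adjusted p = 0.00337) and the uridylyl transferase Tut7 at 1.17 ± 0.18 (0.00461). Of the 26 chaperones 4 fell and 3 rose, with Anp32b at 1.66 ± 0.17 (edgeR adjusted p = 0.00117) and Ubn1, of the H3.3 chaperone complex, at 0.77 ± 0.11 (0.00366). Of the 10 replication-independent histones 1 fell and 1 rose. H2afy, which encodes macroH2A, fell by 1.03 ± 0.12 on the log2 scale (edgeR adjusted p = 0.00165), and H2afx, the H2A variant phosphorylated at DNA breaks, rose by 1.34 ± 0.16 (0.00190). H2afx had 527 and 673 CPM in T deltaPOZ, 558 and 758 in T wt, 189 and 212 in B deltaPOZ, and 337 and 282 in B wt, with every T library above every B library. In human cells its mRNA is known with either kind of 3′ end, a stem-loop or a poly(A) tail.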

How the data were processed

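RNA from 8 spleen tumours (4 groups, 2 libraries each) was analysed from the whole-number read counts per gene that the authors deposited. Per the labels' protocols, RNA was extracted with MagMax-96 and libraries were made with the TruSeq Stranded mRNA kit. TopHat2 2.0.10, SAMtools, HTSeq and DESeq, and the build mm10 (GRCm38), are named in the submitters' processing notes. Which annotation and strand setting HTSeq used is not stated in the sources at hand. Rows that name no gene were left out of library sizes. Reads that HTSeq assigned to no feature were 30.4 to 39.3% and ambiguous reads 0.471 to 0.554% of the reads placed. Of 41214 gene identifiers, 40254 matched GENCODE M21. Depth was 44330101 to 58271208 gene counts, so counting error is small beside the spread between mice. In other measures T deltaPOZ 2 stood apart: it had 25387 genes with a count, against 18339 to 21078 in the other libraries. This library also had the most non-unique alignments. Its share of reads assigned to no feature was the highest, at 39.3%, against 30.4 to 38.5% in the others. How far these differences bear on the histone values was not tested.

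Counts were tested with edgeR 4.0.16 (quasi-likelihood, TMM factors 0.9291 to 1.087, filterByExpr, all 8 libraries, group means, Benjamini-Hochberg over 16456 genes, threshold 0.05). The fit had 4 residual degrees of freedom and a biological coefficient of variation of 0.45. CPM uses the same factors, and errors on fold changes are standard errors. In all 4 contrasts were made, the script was tested on simulated data, and alternatives used DESeq2 1.42.0, limma 3.58.1, other filters, the lineage alone and each library left out. The p-values set each difference against the spread between libraries of a group. They do not separate genotype from sex in B, or genotype from whatever ENU marks in T. Nor do they separate lineage from sequencing run or from whatever the word Notch marks. Chromosome medians used genes above 10 CPM.

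The text names, per class, the 3 members of highest level per coding length, the 4 members of smallest p in each direction per comparison, and all called members. It names 2 genes of smallest p per histone-related list for the B comparison and for T minus B, and always Slbp, Npat and Zbtb17. A list gene that this rule names is not reported here. Other genes were named after their values were seen. The members and lists were chosen with earlier results of these data known. The 3 pseudogenes that share the symbols were left out of the members.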

Additional observations from a re-analysis of the deposited data

How the results depend on the processing

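With 2 mice per group, a change of tool or filter moved the number of genes called more than the direction of the members. Leaving out libraries, by contrast, did move the direction of the members in T. In B the edgeR count of 1 gene became 682 with DESeq2, 6 with limma-voom, 1324 without the filter on low counts, 9 with at least 5 CPM in 2 libraries and 6 with the lineage alone, and the members called became 1 with DESeq2 and 5 without the filter. Leaving out 1 library gave 0 to 9 genes called, 52 to 57 members below 0 and medians from -0.74 to -0.40 in B. Cdkn1a in B ranged from -3.36 to 0.22 and Hist1h2ao from -1.21 to 1.57. In T, 51 genes were called with DESeq2 and 254 without the filter, and 5 members were below 0 with limma-voom. Leaving out 1 library in T gave 2 to 53 members below 0 and medians from -0.23 to 0.63, and the ranges were -0.094 to 1.20 for Hist1h1a, -0.050 to 0.83 for Hist1h2an, -0.11 to 0.95 for Hist1h3f, -0.52 to 0.51 for Hist1h4i and -0.52 to 0.23 for Hist1h4k. Between the lineages, leaving out 1 library gave 3621 to 4900 genes called, 2 to 26 members called, 1 to 10 members below 0 and medians from 0.37 to 0.84. Hist1h4i then ranged from -0.51 to 0.00081, Hist1h4m from -0.51 to 0.037 and Hist2h3c2 from -0.35 to 0.19. The members called were 36 without the filter, and 7 were below 0 with a total of at least 10 counts. For the difference of the effects, 225 genes were called with DESeq2 and 784 genes and 1 member without the filter. The members below 0 were 0 with limma-voom and with 5 CPM, 3 with a total of at least 10 counts and without the filter, and 0 among the members with under 50% of shared stretches. Leaving out 1 library gave 0 to 4 genes called, 0 to 3 members below 0 and medians from 0.38 to 1.21. Hist1h2ao in this difference was 0.48 with limma-voom and ranged from -1.01 to 1.79 with 1 library left out. Chosen after seeing the data, leaving out B wt 2, T wt 1 and T deltaPOZ 2 together gave a T median of -0.55 with 57 members below 0, 1312 genes and 0 members called between the lineages, and a median difference of 0.067 with 25 members below 0. It put Cdkn1a in B at 0.16, and in T Hist1h2an at -0.30, Hist1h3i at -0.24, Hist1h1a at -0.60 and Hist1h3f at -0.53. The cause of these shifts was not tested, beyond the fewer libraries or the different set of genes in each setting. No paired analysis was possible because the replicate numbers follow accession order and the labels give none. Non-unique alignments set aside limit the levels of near-identical members.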

Other observations

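The symbols of the family also name 3 pseudogenes, which the comparisons leave out. Hist1h2al had 2560 and 2592 counts in T deltaPOZ, 2277 and 2361 in T wt, 7452 and 1798 in B deltaPOZ, and 3306 and 25 in B wt. Hist3h2bb-ps, on chromosome 11 as Hist3h2ba and Hist3h2a are, had 1807 and 4389 counts in T deltaPOZ, 1352 and 3769 in T wt, 55 and 708 in B deltaPOZ, and 1017 and 791 in B wt. Hist1h2aj had 3 to 15 counts in each library.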
